A study of Mus musculus with 12 samples.

Results

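The Ly6 genes encode small surface proteins, and 7 of them were followed in whole liver RNA of 5 mice on control diet (pair-fed, PF) and 7 mice on alcohol (AF): Ly6d, Ly6a, Ly6c1, Ly6c2, Ly6e, Ly6h and Ly6k. They were found in the deposited table by matching its 54232 Ensembl gene IDs to GENCODE M21 symbols, and each symbol matched 1 ID. The neutrophil gene Ly6g was kept out of the member list and is described with the relatives. The list was proposed because Ly6d was known to be among the strongest rises in AF livers. Members were therefore chosen with the AF against PF values in view, and these values are given for them as a description without a test.

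The labels describe all mice as C57BL6/J males with an age of 8 weeks, without saying whether this was before the feeding. AF mice belonged to the intragastric model of alcohol-associated steatohepatitis (ASH), in which a liquid diet rich in corn oil was infused into the stomach beside a solid diet high in cholesterol and saturated fat. Over 8 weeks ethanol reached 27 g/kg/day, with a weekly binge of 5 g/kg. PF mice received an isocaloric high-fat liquid diet for 8 weeks. Before the infusion the mice had the solid Western diet or regular chow, and the paper does not say which group had which. Nor does it name the solid diet of PF mice during the infusion, so the groups may differ by more than ethanol. Each library was 1 mouse, and no mouse carried a transgene or deletion according to the labels. The libraries held 24129900 to 28594027 reads on genes in PF and 25099033 to 30578639 in AF. Expression is given as CPM (counts scaled to a common library size), with library sizes scaled by TMM factors (0.832 to 0.901 for PF, 0.88 to 1.36 for AF). Of 14168 genes that passed the filter on low counts, 39.8% were called in AF against PF at an adjusted p under 0.05, 22% as higher and 17.8% as lower (edgeR quasi-likelihood test, Benjamini-Hochberg). The hepatocyte list was abundant in every library, with a summed level of 107900 to 155500 CPM in PF and 57510 to 111500 CPM in AF livers.

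Ly6 proteins share a compact fold of finger-like loops held by disulfide bonds, and most are tied to the outer membrane leaflet by a glycosylphosphatidylinositol (GPI) anchor. The wider Ly6/uPAR superfamily also holds the urokinase receptor, the complement inhibitor CD59 and secreted forms. In mice, most genes of the Ly6 branch lie side by side on chromosome 15. Ly6a encodes Sca-1, a marker of stem cells and endothelium, and Ly6c1 and Ly6c2 encode the Ly6C antigen of inflammatory monocytes and endothelium. Ly6e is an interferon-inducible gene of many tissues. Ly6d marks early commitment to the B cell lineage and is expressed by squamous epithelium. Ly6h is known from the brain and Ly6k from the testis.

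Of the 7 members, 5 passed the filter and 2, Ly6h and Ly6k, did not. Ly6d was the member with the largest difference, from 0.744 ± 0.294 CPM in PF (SD, n = 5) to 81.3 ± 26.5 CPM in AF (SD, n = 7). Ly6a was 2.76 times as high in AF by the ratio of mean CPM, and Ly6c1 was 3.22 times as high at a level close to the detection limit. Ly6e differed little, and Ly6c2 was high in a single PF liver. Ly6d was the member whose AF livers all lay above all PF livers, beside 17.7% of the 14168 tested genes whose groups did not overlap in either direction. Since the members were chosen on this contrast, nothing is read from that count. In whole liver RNA, fewer cells of a type and less RNA per cell cannot be told apart.

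**Figure D1:**
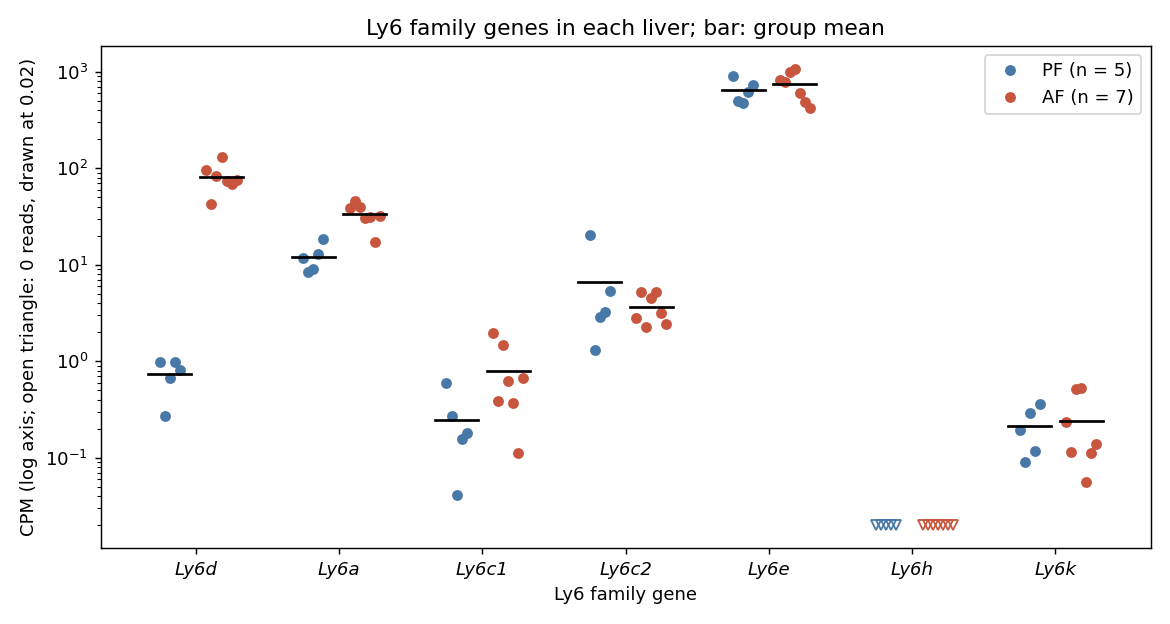
CPM of each Ly6 family gene (log axis) in each of 5 PF (blue) and 7 AF (red) livers, with bars at the group means and open triangles for livers without a read. Ly6d lies between 0.274 and 0.984 CPM in PF and between 43 and 129 CPM in AF, Ly6e is the highest member in both groups, and Ly6h has no read in any liver.

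Ly6d (ENSMUSG00000034634, chr15:74762056-74763620, minus strand, GRCm38) was covered by 20, 6, 16, 25 and 18 reads in PF livers 1 to 5. In AF livers 1 to 7 it was covered by 3673, 1118, 2731, 4142, 2598, 1836 and 2173 reads. Every AF liver thus held more reads of Ly6d than the 85 found in all PF livers together. In CPM, the PF livers stood at 0.984, 0.274, 0.666, 0.982 and 0.814, and the AF livers at 95.1, 43, 82.9, 129, 74, 68.3 and 76.4. AF liver 4 was the highest and AF liver 2 the lowest of its group, a spread of 3.01-fold. The fitted log2 fold change was 6.76 ± 0.34 (SE), rank 16 among all tested genes, and the ratio of mean CPM was 109. Leaving out any 1 library, exchanging the tool, the scaling or the filter moved the fitted value between 6.55 and 7.15. None of the stretches of 50 bases in annotated Ly6d transcripts occurs in a transcript of another gene. Copies with mismatches or outside the annotation were not searched for in this check. Ly6d made up 0.0544 to 0.157% of the reads on the 7 members in PF livers and 4.88 to 14.4% in AF livers.

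Ly6a (ENSMUSG00000075602, chr15:74994877-74998031, minus strand) stood at 11.7, 8.46, 9.08, 12.9 and 18.6 CPM in PF livers 1 to 5. In AF livers 1 to 7 it stood at 38.4, 45.7, 39.7, 30.6, 31.2, 17.04 and 31.9 CPM. In 6 of the 7 AF livers Ly6a lay above all PF livers, and AF liver 6 fell within the PF range. The group means were 12.1 ± 4.06 CPM (SD, n = 5) and 33.5 ± 9.12 CPM (SD, n = 7), and the log2 fold change was 1.46 ± 0.24 (SE). AF liver 6 was also the lowest AF liver for Ly6c1 and Lynx1.

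Ly6e (ENSMUSG00000022587, chr15:74955051-74959905, plus strand) was the most abundant member. The PF livers stood at 910.8, 494, 471, 609 and 731 CPM, and the AF livers at 817, 787, 999, 1071, 605, 484 and 419 CPM. The groups overlapped over most of their range: 2 AF livers lay above all PF livers and 1 below. The log2 fold change was 0.20 ± 0.25 (SE), with group means of 643 ± 182 and 740.4 ± 249 CPM (SD). Ly6e took 96.4 to 97.9% of all reads on the members in PF livers and 79 to 89.3% in AF livers. None of its stretches of 50 bases was shared with another gene.

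Levels of different members were compared per kilobase of annotated exon. In PF livers Ly6e was the highest with 170 ± 48.1 CPM per kb (SD), ahead of Ly6a with 10.1 ± 3.37 and Ly6c2 with 2.40 ± 2.81. Below them came Ly6d with 1.00 ± 0.395, Ly6k with 0.256 ± 0.138 and Ly6c1 with 0.148 ± 0.124 CPM per kb. In this order Ly6c2 and Ly6d did not differ beyond their spread, nor did Ly6k and Ly6c1. Ly6c2 was above Ly6d per kb in 4 of 5 PF livers, and its PF mean fell from 6.58 to 3.20 CPM, before division by length, without PF liver 1. In AF livers Ly6d moved up to rank 2 with 109 ± 35.7 CPM per kb, behind Ly6e with 196 ± 65.8. The ranges of mean ± SD of these members overlapped, though Ly6e was above Ly6d in each of the 7 AF livers. Ly6d was above Ly6a per kb in 7 of 7 AF livers and in 0 of 5 PF livers. Ly6a followed with 27.8 ± 7.57, then Ly6c2 with 1.34 ± 0.471, Ly6c1 with 0.478 ± 0.401 and Ly6k with 0.294 ± 0.239 CPM per kb. Ly6c2 and Ly6c1 overlapped in mean ± SD, with Ly6c2 above in 5 of 7 AF livers, and Ly6c1 and Ly6k again did not differ beyond their spread.

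Ly6c1 and Ly6c2 are near copies, which matters for how their reads were shared out. Their most alike coding sequences in GENCODE M21 are both 393 bases long and identical at 384 of them (97.7%). The next closest member, Ly6a, matches Ly6c1 at 83.7% of aligned coding bases, whereas Ly6d matches Ly6c1 at 60.3%. The stretch of 120 coding bases with the most differences is shown here because it holds 6 of the coding positions at which the genes differ. It starts at the first coding base, runs 5′ to 3′ on the coding strand, and has the differing bases in capitals.

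Ly6c1: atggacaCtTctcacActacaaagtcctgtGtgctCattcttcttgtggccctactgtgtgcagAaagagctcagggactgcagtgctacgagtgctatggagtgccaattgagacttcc
Ly6c2: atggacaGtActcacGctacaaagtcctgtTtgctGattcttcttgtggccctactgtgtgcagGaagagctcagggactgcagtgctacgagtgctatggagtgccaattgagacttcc

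Of the stretches of 50 bases in annotated transcripts, 32.8% of those of Ly6c1 and 14.5% of those of Ly6c2 also occur in another gene, for most of them the other gene of the pair. At 100 bases the shares are 10.1% and 5.81%. For Ly6a, 19% of stretches of 50 bases are shared, mostly with Ly6c1. Reads from such stretches could have been dropped or split by the alignment and counting, so the levels of Ly6c1 and, to a lesser degree, of Ly6c2 and Ly6a are uncertain.

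Ly6c1 (ENSMUSG00000079018, chr15:75044018-75048830, minus strand) was covered by 12, 6, 1, 4 and 4 reads in PF livers and by 76, 10, 49, 20, 13, 3 and 19 reads in AF livers. In CPM the PF livers lay between 0.0416 and 0.59 and the AF livers between 0.112 and 1.97. AF livers 1 and 3 were the highest, 4 of 7 AF livers lay above all PF livers, and the other 3 fell within the PF range. The log2 fold change was 1.72 ± 0.68 (SE), with group means of 0.249 ± 0.208 CPM (SD, n = 5) and 0.802 ± 0.673 CPM (SD, n = 7). With so few reads, the counting error of a single liver is large.

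Ly6c2 (ENSMUSG00000022584, chr15:75108158-75111970, minus strand) was covered by 409, 29, 69, 82 and 119 reads in PF livers 1 to 5. In AF livers 1 to 7 it was covered by 109, 137, 75, 144, 183, 85 and 70 reads. PF liver 1 thus stood apart with 20.1 CPM against 1.33 to 5.38 CPM in the other PF livers and 2.28 to 5.27 CPM in AF livers. The fitted log2 fold change was -0.84 ± 0.53 (SE) over all livers and 0.19 ± 0.35 (SE) without PF liver 1, so its sign rested on that library. Without it the PF mean was 3.20 ± 1.67 CPM (SD, n = 4), beside 3.67 ± 1.29 CPM (SD, n = 7) in AF.

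The same liver stood apart for neutrophil genes. The summed level of the 12 genes of the neutrophil list, with S100a8, S100a9, Ngp and Camp among them, was 1102 CPM in PF liver 1, 65.5 to 246.5 CPM in the other PF livers and 51.7 to 229 CPM in AF livers. Much of the summed level came from S100a9, S100a8 and Ngp, which reached 424.7, 272.8 and 244 CPM among PF livers. Ly6g, the gene of the neutrophil antigen Ly6G, stood at 3.44 CPM in PF liver 1 and between 0.0915 and 0.814 CPM in the other PF livers. The related gene Ly6a2 stood at 8.56 CPM there and at no more than 1.27 CPM in the other PF livers. No gene of the neutrophil list was called in either direction by edgeR, beside 22% higher and 17.8% lower of all tested genes. At an unadjusted p under 0.05, 4 of the 12 were lower in edgeR. DESeq2 called 3 of them lower, beside 2929 of all 14168 tested genes, and limma-voom called 0. The median log2 fold change of the list was -0.97, and 0.15 without PF liver 1. Over all livers Csf3r, Il1r2 and Cxcr2 had log2 fold changes of 0.43, 0.57 and 0.04, and those of the other genes of the list were negative. The part of neutrophil RNA in the Ly6c2 value of PF liver 1 was not tested.

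**Figure D2:**
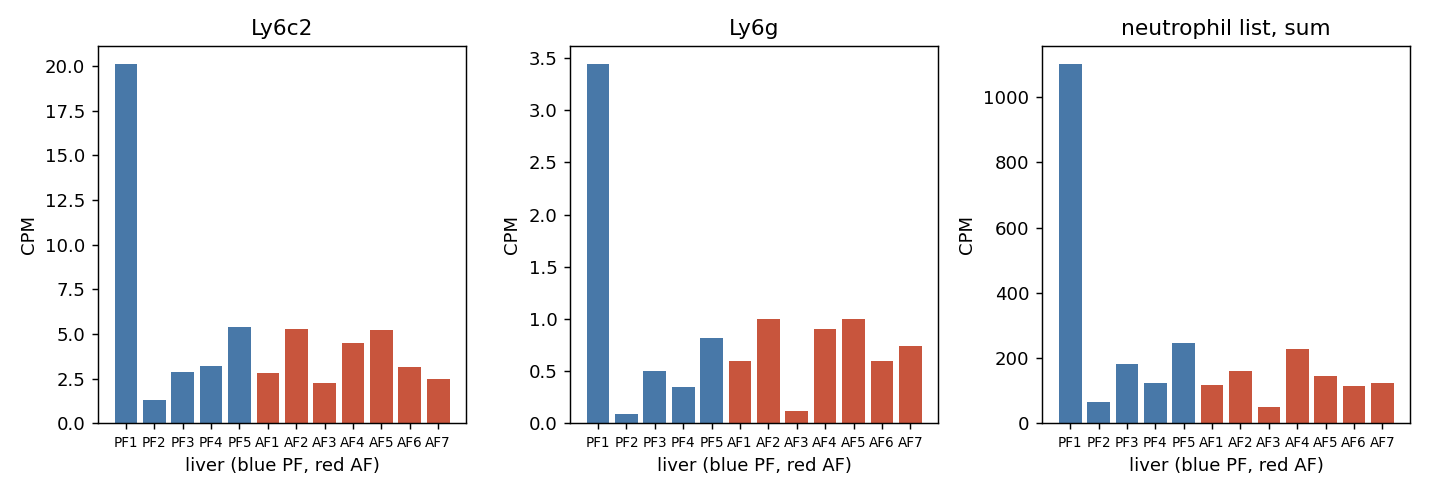
Ly6c2, Ly6g and the summed level of the 12 genes of the neutrophil list in CPM (linear axes from 0), 1 bar per liver, PF in blue and AF in red. PF liver 1 is the highest in all panels, with 20.1, 3.44 and 1102 CPM.

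Monocytes are the classical carriers of Ly6C. The monocyte list had a summed level of 369 to 769 CPM in PF and 779 to 2357 CPM in AF livers. Of its 12 tested genes, 3 rose and 0 fell (25% higher, beside 22% of all tested genes): the lysozyme gene Lyz2 (log2 fold change 1.59 ± 0.35 SE, adjusted p = 0.00369), the fractalkine receptor gene Cx3cr1 (2.30 ± 0.53 SE, adjusted p = 0.00477) and the receptor gene Csf1r (0.79 ± 0.21 SE, adjusted p = 0.0102, edgeR for all 3). Ccr2, the chemokine receptor of the monocytes that carry Ly6C at a high level, had a log2 fold change of 0.46 ± 0.32 (SE) with an adjusted p of 0.266. Much of the summed level came from Lyz2, which reached 515 CPM in PF and 1861 CPM in AF livers. AF liver 3, the highest for the list, had the lowest AF level of Ly6c2, 2.28 CPM. In PF livers 2 to 5 Ly6c2 and the summed level had the same order. PF liver 1 did not follow it: it was the highest PF liver for Ly6c2 with 20.1 CPM. Its summed level of 637 CPM was below the 769 CPM of PF liver 5. The part of monocytes in the level of Ly6c2 was not tested.

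Ly6h (ENSMUSG00000022577, chr15:75551268-75567255, minus strand) had 0 reads in all 12 libraries. At 95% confidence, 0 reads leave room for 3 counts, which is 0.0777 to 0.148 CPM in a single library and 0.00899 CPM over all libraries. Ly6k (ENSMUSG00000044678, chr15:74796874-74799986, minus strand) was covered by 24 reads in PF and 55 in AF, at most 8 in a PF liver and 17 in an AF liver. Its means were 0.212 ± 0.114 CPM (SD, n = 5) and 0.244 ± 0.199 CPM (SD, n = 7), with overlapping groups. The antisense gene Gm17189 overlaps Ly6k, and 32.7% of the stretches of 50 bases of Ly6k occur in it. Gm17189 itself was covered by 8 reads over all livers, and the strand setting of the counting is not given in the sources used here.

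The other genes of the Ly6/uPAR superfamily were taken from a list of 39, all of them present in the table and 4 of them under an older name. Of these, 16 had no reads, and 7 passed the filter on low counts. By edgeR 2 rose and 1 fell, beside 22% higher and 17.8% lower of all genes tested. The median log2 fold change of the 7 was -0.48, beside 0.04 for all genes tested. The genes that rose were Lynx1 and Plaur, and the gene that fell was Ly6g2.

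Lynx1, which encodes a GPI-anchored modulator of nicotinic acetylcholine receptors, lies beside Ly6d on the same strand, with 10.6 kb between the start sites. The PF livers stood at 1.18, 0.64, 1.499, 0.904 and 1.09 CPM, and the AF livers at 14.6, 5.19, 7.19, 7.66, 9.83, 2.64 and 3.55 CPM. All 7 AF livers lay above all PF livers, with AF liver 1 the highest and AF liver 6 the lowest. The log2 fold change was 2.77 ± 0.42 (SE) with an adjusted p of 0.000388 (edgeR), and the exact two-sided permutation test of mean log2 CPM gave p = 0.00126, the smallest that 792 divisions of the livers allow.

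Plaur, the gene of the urokinase receptor, lies on chromosome 7. It was covered by 24, 6, 15, 13 and 15 reads in PF livers and by 271, 52, 113, 92, 53, 39 and 49 reads in AF livers. AF liver 1 was far above the other AF livers with 7.02 CPM, and all 7 AF livers exceeded all PF livers. The log2 fold change was 2.14 ± 0.47 (SE), with an adjusted p of 0.00372 (edgeR) and an exact permutation p of 0.00126. Without AF liver 1 Plaur was still called by edgeR.

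Ly6g2, named BC025446 in GENCODE M21, was the relative with the highest CPM in PF livers. The PF livers stood at 181, 167, 149, 120 and 138 CPM, and the AF livers at 33, 91.6, 46.3, 70.4, 52, 85.5 and 71.6 CPM. All 7 AF livers lay below all PF livers, and AF livers 1 and 3 were the lowest. The log2 fold change was -1.23 ± 0.22 (SE), with an adjusted p of 0.00108 (edgeR) and an exact permutation p of 0.00126.

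The other 4 tested relatives of the list did not pass the threshold in edgeR. Gpihbp1, whose protein carries lipoprotein lipase across capillary endothelium, stood at 12.9 ± 2.75 CPM in PF and 16.8 ± 2.65 CPM in AF (SD), with a log2 fold change of 0.38 ± 0.15 (SE) and an adjusted p of 0.0576. The complement inhibitor genes Cd59a and Cd59b had log2 fold changes of -0.48 ± 0.22 and -0.60 ± 0.26 (SE), with adjusted p-values of 0.0998 and 0.081 (edgeR). Ly6g had a log2 fold change of -0.54 ± 0.66 (SE) and an adjusted p of 0.537 (edgeR), and a log2 fold change of 0.68 without PF liver 1. Ly6a2, a superfamily gene of the chromosome 15 region that the list of 39 does not hold and GENCODE M21 annotates as a transcribed pseudogene, had a log2 fold change of -0.58 ± 0.70 (SE) and an adjusted p of 0.533 (edgeR), and a log2 fold change of 0.88 without PF liver 1. Of the relatives with too few reads, Gml and Gml2, which lie between Ly6k and Ly6e, had 0 reads in PF and 18 and 25 reads in AF livers. Ly6f had 37 reads in PF and 16 in AF, and Ly6i 60 and 70.

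The 7 members lie in 1 region of chromosome 15, which also holds Lynx1, Ly6g, Ly6g2 and Gpihbp1. Between 250000 bases before the first and 250000 bases after the last member, chr15:74512056-75817255, GENCODE M21 annotates 64 genes, of which 22 belong to the superfamily and 16 passed the filter. The superfamily genes reach from Psca to Gpihbp1 over 885 kb. Differences between AF and PF in this region did not run in 1 direction: Lynx1 was called higher and Ly6g2 lower, and Ly6e, between them, had the small difference given above. Of the 6 tested genes outside the superfamily, 3 rose and 0 fell (edgeR), beside 22% higher and 17.8% lower of all tested genes. Them6 rose from 1.01 ± 0.0878 to 2.20 ± 0.29 CPM (SD, log2 fold change 1.13 ± 0.16 SE, adjusted p = 0.000281), and its start site lies 42.4 kb from that of Ly6d. The zinc finger gene Zfp41 rose from 2.21 ± 0.377 to 4.54 ± 1.22 CPM (SD, log2 fold change 1.04 ± 0.23 SE, adjusted p = 0.00401). Jrk rose from 0.967 ± 0.415 to 1.66 ± 0.322 CPM (SD, log2 fold change 0.77 ± 0.28 SE, adjusted p = 0.0407), a call lost in 10 of the 12 fits that left out 1 library each, PF liver 3 and AF liver 6 being the exceptions (adjusted p 0.0501 to 0.0865 where lost). Gm39556, Top1mt, a mitochondrial topoisomerase gene, and 9030619P08Rik were not called, with log2 fold changes of 0.17 ± 0.36, -0.05 ± 0.13 and -1.07 ± 0.45 (SE). DESeq2 and limma-voom called 9030619P08Rik lower (adjusted p = 0.037 and 0.0189). The 2 genes of the adrenal cortex in this window, Cyp11b1 and Cyp11b2, had 0 and 5 reads.

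**Figure D3:**
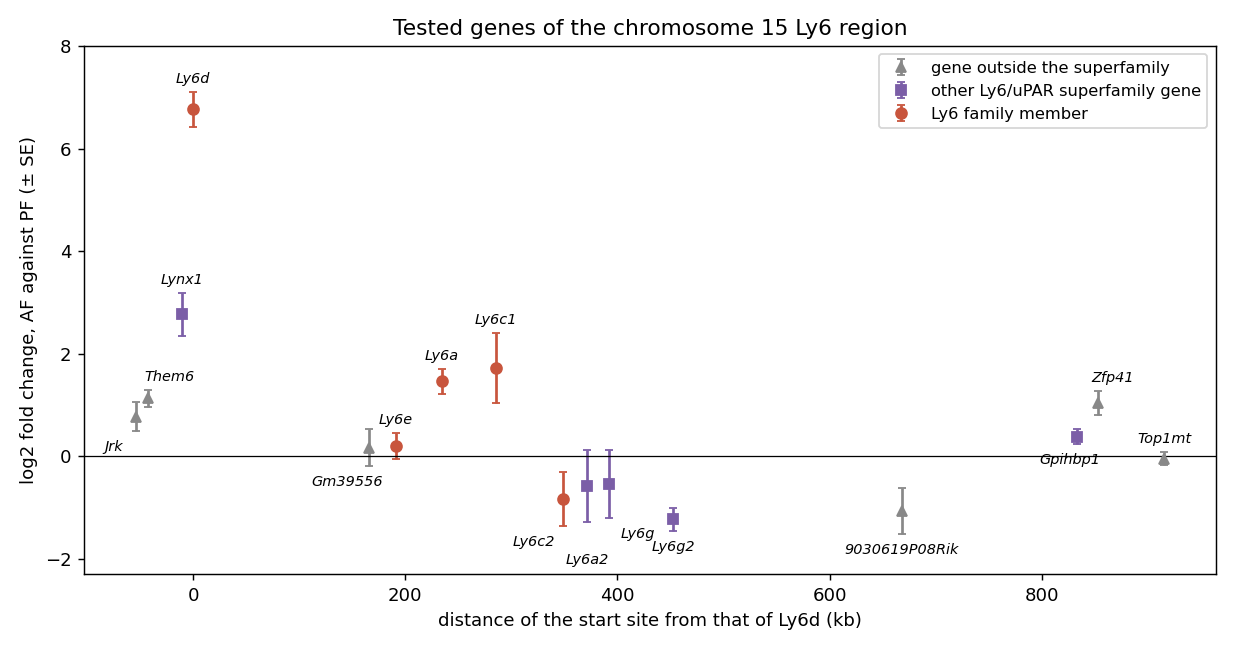
Log2 fold change of AF against PF with its standard error for the 16 tested genes of the chromosome 15 region, by the distance of each start site from that of Ly6d in kb. Red circles are the members, purple squares other superfamily genes and grey triangles other genes. Ly6d stands at 6.76 and its neighbour Lynx1 at 2.77, while Ly6e, 191 kb away, stands at 0.20 and Ly6g2 at -1.23.

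Promoter sequences from RefSeq (windows of 300 bases that end 50 bases after a start site, GRCm38.p6) were at hand for 2 of the 7 members, Ly6c1 and Ly6c2, and not for Ly6d, Ly6a, Ly6e, Ly6h and Ly6k. They are shown because Ly6c1 and Ly6c2, though near copies in their coding part, differed in level and in their high livers, and beside them that of Ly6g, which was high in the same liver as Ly6c2. Each has a second annotated start site, and 1 promoter per gene is printed. It is the first annotated window for Ly6c1 and Ly6c2 and the second for Ly6g, so the copies shown depend on this choice. Capitals mark the letters GAGGAAGT, a core bound by the myeloid factor PU.1, and TATAAA, the TATA box. The motifs were chosen after these promoters had been read. The windows are chr15:75048788-75049087 for Ly6c1 and chr15:75111922-75112221 for Ly6c2, both on the minus strand, and chr15:75155079-75155378 on the plus strand for Ly6g.

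Ly6c1: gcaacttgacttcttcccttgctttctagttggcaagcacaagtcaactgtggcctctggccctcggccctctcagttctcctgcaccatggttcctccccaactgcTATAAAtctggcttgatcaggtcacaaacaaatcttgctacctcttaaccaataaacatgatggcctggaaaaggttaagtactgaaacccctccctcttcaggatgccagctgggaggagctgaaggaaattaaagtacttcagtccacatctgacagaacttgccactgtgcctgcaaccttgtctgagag
Ly6c2: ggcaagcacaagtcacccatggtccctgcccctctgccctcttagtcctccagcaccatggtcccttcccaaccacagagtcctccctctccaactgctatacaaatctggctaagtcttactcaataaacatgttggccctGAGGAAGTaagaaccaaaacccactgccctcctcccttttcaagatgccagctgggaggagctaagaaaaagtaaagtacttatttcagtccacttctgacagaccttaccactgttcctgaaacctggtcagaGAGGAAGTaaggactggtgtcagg
Ly6g: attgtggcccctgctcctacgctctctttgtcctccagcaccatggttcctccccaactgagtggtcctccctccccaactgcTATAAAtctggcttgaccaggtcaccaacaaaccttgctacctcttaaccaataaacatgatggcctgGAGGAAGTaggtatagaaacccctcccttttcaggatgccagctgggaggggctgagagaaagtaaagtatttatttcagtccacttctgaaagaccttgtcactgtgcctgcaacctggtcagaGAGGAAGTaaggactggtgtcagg

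Counted from their first letter, the letters GAGGAAGT occur at 108 bases before and 26 bases after the start site in the Ly6c2 window, and at 99 bases before and 26 bases after it in that of Ly6g. They are in neither strand of the Ly6c1 window shown, and occur once in the window of its other start site. That copy begins at the last bases of the window shown, so its absence there is set by where the window ends. The first annotated window of Ly6g, not printed, holds 1 copy. Over 32851 RefSeq promoters of this length, 3.2% hold GAGGAAGT and 13.6% hold TATAAA on either strand. TATAAA occurs at 143 bases before the start site in the Ly6c1 window and at 167 bases before it in that of Ly6g, and is not among the letters of the Ly6c2 window. The interferon-response letters GAAANNGAA (8.56% of promoters), the STAT site TTCNNNGAA (8.3%) and the AP-1 site TGANTCA (7.81%), searched on both strands, were in none of these windows. A match describes the letters, and binding was not measured.

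Genes of pathways and cell types known for Ly6 proteins were described from fixed lists. Of 30 interferon-stimulated genes, all tested, 6 rose and 2 fell, which is 20% and 6.67% beside 22% and 17.8% of all tested genes. Their median log2 fold change was 0.17. The antiviral gene Rsad2 rose from 9.90 ± 1.79 to 22.7 ± 13.1 CPM (SD, log2 fold change 1.20 ± 0.37 SE, adjusted p = 0.0198, edgeR) and Mx1 had a log2 fold change of 0.93 ± 0.25 (SE, adjusted p = 0.0103). The RNA sensor gene Ifih1 (-0.56 ± 0.13 SE, adjusted p = 0.00596) and the membrane gene Ifitm3 (-0.53 ± 0.15 SE, adjusted p = 0.0123) fell. Of the list of GPI anchor enzymes, 28 of 29 were tested, of which 4 rose and 5 fell, with a median log2 fold change of 0.08. These are 14.3% and 17.9%, beside 22% and 17.8% of all tested genes. Without PF liver 2 or PF liver 4, 2 fell. Pgap1, a GPI inositol deacylase gene, fell from 29.1 ± 2.69 to 15.8 ± 1.86 CPM (SD, adjusted p = 3.7e-05, edgeR), and Dpm1, a subunit gene of dolichol-phosphate mannose synthase, fell by 0.63 ± 0.20 (SE) on the log2 scale (adjusted p = 0.0251). Pigq, a subunit gene of the first enzyme of anchor synthesis, rose by 0.44 ± 0.07 (SE, adjusted p = 0.000517), and Pgap3 had a log2 fold change of 0.83 ± 0.23 (SE, adjusted p = 0.0114).

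**Figure D4:**
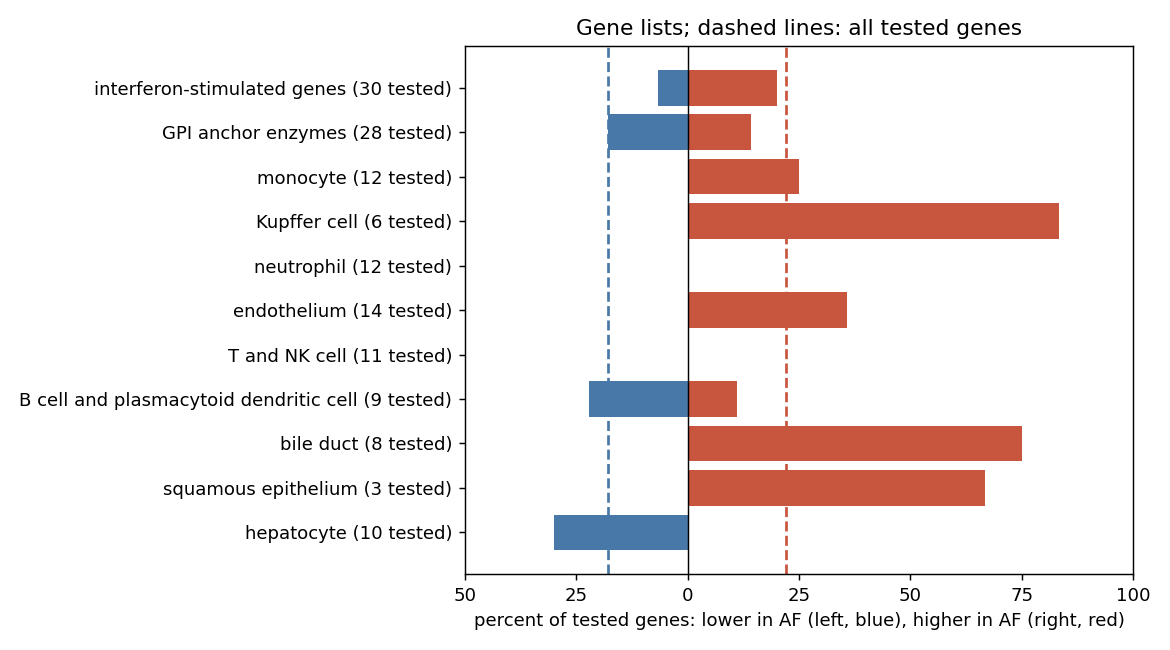
Percent of the tested genes of each list that were called lower (blue, to the left) or higher (red, to the right) in AF against PF by edgeR, with dashed lines at 17.8% lower and 22% higher for all 14168 tested genes. The bile duct and Kupffer cell lists reach 75% and 83.3% higher, and the neutrophil and T and NK cell lists have no called gene. The bile duct share includes Krt19 and Krt7, which had few reads in PF livers.

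Markers of the cell types that can carry Ly6d did not all move with it. Of 9 tested genes of the B cell and plasmacytoid dendritic cell list, 1 rose and 2 fell (11.1% and 22.2%, beside 22% and 17.8% of all tested genes), and the median log2 fold change was -0.93. The immunoglobulin genes Ighm (-2.39 ± 0.46 SE, adjusted p = 0.00161) and Jchain (-1.61 ± 0.48 SE, adjusted p = 0.0169) fell, and the receptor gene Cd22 rose (1.30 ± 0.28 SE, adjusted p = 0.00317, edgeR for all 3). The list's summed level was 27.8 to 175.8 CPM in PF and 14.5 to 42.7 CPM in AF livers. Siglech, a defining gene of plasmacytoid dendritic cells, had 81 reads in PF and 82 in AF livers, while Ly6d had 85 and 18271. Scaled to library size, Siglech had a log2 fold change of -0.93 ± 0.42 (SE, adjusted p = 0.0911, edgeR). Of 12 squamous epithelium genes, 3 were tested and 2 of them were called higher by edgeR, beside 22% of all tested genes. The cornified envelope gene Sprr1a had 1 read in PF and 541 reads in AF livers. It passed the filter on low counts only through its AF reads, so nothing is read from its call. Sfn had a log2 fold change of 1.15 ± 0.38 (SE, adjusted p = 0.0286, edgeR). The count was 1 with any of PF livers 2, 3 and 5 or AF livers 1, 3 and 5 left out. It was also 1 with the filter of 1 count anywhere. The squamous keratin genes Krt5 and Krt14 had 0 reads in PF and 18 and 3 reads in AF livers, Krt13 had 0 and 5, and Trp63 had 5 and 2. The summed level of this list, 89.7 to 115.6 CPM in PF and 87.6 to 144.5 CPM in AF livers, came mostly from Perp. In the bile duct list, 6 of 8 tested genes were higher by edgeR (75%, beside 22% of all tested genes), with a median log2 fold change of 2.13. Krt19 and Krt7, among those called, had 25 and 38 reads in PF and 328 and 413 reads in AF livers. Their PF reads alone were too few to pass the filter, so nothing is read from their calls. The largest called rises were Prom1 (3.73 ± 0.90 SE, adjusted p = 0.00604) and the epithelial adhesion gene Epcam (2.76 ± 0.77 SE, adjusted p = 0.0126, edgeR). By limma-voom 1 of these 8 genes was called. The list's summed level was 63.5 to 264 CPM in PF and 91.2 to 1214 CPM in AF livers, so the groups overlapped. Most of it came from Spp1, which reached 239 and 1047 CPM and was not called (adjusted p = 0.0635, edgeR). In AF livers 1 to 7 the summed level was 1214, 193, 396, 506, 840, 102 and 91.2 CPM. Ly6d stood at 95.1, 43, 82.9, 129, 74, 68.3 and 76.4 CPM in the same livers. The part of these cells in the Ly6d level was not tested.

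Endothelium and resident macrophages are further places where Ly6a, Ly6c1 and Ly6e can be found. Of 14 tested endothelium genes 5 rose and 0 fell (35.7% higher, beside 22% of all tested genes), with Cd34 (log2 fold change 1.73 ± 0.33 SE, adjusted p = 0.00172) and the lymphatic and sinusoidal gene Lyve1 (1.15 ± 0.25 SE, adjusted p = 0.00372, edgeR) ahead. The summed levels were 221 to 444 CPM in PF and 337 to 487.5 CPM in AF livers, so they overlapped. With PF liver 1, PF liver 5 or AF liver 2 left out, 3 of these genes rose. Of 6 Kupffer cell genes 5 rose and 0 fell (83.3% higher), among them the scavenger receptor gene Marco (1.78 ± 0.50 SE, adjusted p = 0.0139) and Cd5l (1.31 ± 0.24 SE, adjusted p = 0.0013, edgeR). With PF liver 1 or PF liver 2 left out, 3 of them were called. Their summed level was 615 to 886 CPM in PF and 889 to 2779 CPM in AF livers. No gene of the T and NK cell list was called in 11 tested by edgeR, DESeq2 or limma-voom, and 0 had an unadjusted p under 0.05 in edgeR. In the monocyte, Kupffer cell, endothelium and bile duct lists, 0 genes were lower at an unadjusted p under 0.05 in edgeR, and 0 were called lower by DESeq2 or limma-voom. Of 10 hepatocyte genes 0 rose and 3 fell by edgeR (30% lower, beside 17.8% of all tested genes). At an unadjusted p under 0.05, 8 of them were lower in edgeR. DESeq2 called 9 of them lower, beside 2929 of all 14168 tested genes. By limma-voom 6 were called lower, while 5198 of the 14168 genes were called in either direction. The edgeR count was 9 without AF liver 6, and 5 without AF liver 2 or AF liver 7. Apoa1 (-1.21 ± 0.22 SE, adjusted p = 0.00117) and Tat (-1.09 ± 0.29 SE, adjusted p = 0.00991, edgeR) were among the genes that fell. The part of these cells in the levels of Ly6a, Ly6c1 and Ly6e was not tested.

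Spread among the livers was described by the genes most alike to each member. The measure was Pearson's r of log2 CPM over the 12 livers after the mean of each group had been subtracted, over genes averaging 3 or more on the log2 CPM scale, and values of 1 liver share its library and depth. The 3 highest of 8347 or 8348 genes are given for each member, and a search of this size yields high r by selection alone. For Ly6d the genes were Ifi27l2b (r = 0.872), Chd1l (0.865) and Katna1 (0.857). For Ly6a they were H2-DMb1 (r = 0.943) and H2-DMa (0.902), which encode the peptide loader of MHC class II, and the collagen gene Col3a1 (0.888). For Ly6c1 they were Pbxip1 (r = 0.914), Gusb (0.911) and Ctdsp2 (0.909). For Ly6c2 they were the neutrophil genes S100a8 (r = 0.922), S100a9 (0.91) and Ngp (0.85), and within the AF livers alone r was 0.765, 0.68 and 0.747. For Ly6e they were Slc7a7 (r = 0.943), Glipr2 (0.932) and Sae1 (0.925). The most alike genes of the 5 members had no gene in common.

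Among the 7 AF livers, the 5 tested members were also compared with each other. Over 10 pairs, none passed an adjusted p of 0.05 in the exact permutation test of Pearson's r or Spearman's rho. The pair with the lowest p for Pearson's r was Ly6a and Ly6c1, with r = 0.693 (exact two-sided permutation p = 0.08, adjusted p = 0.629) and rho = 0.536 (p = 0.236, adjusted p = 0.589, n = 7), and r was 0.916 without the 2 livers farthest from the median of Ly6a. Their r was 0.216 without AF liver 6 alone. By Spearman's rho the pair with the lowest p was Ly6d and Ly6c1, with rho = 0.679 (exact permutation p = 0.11, adjusted p = 0.463) and r = 0.436 (p = 0.314, adjusted p = 0.629, n = 7). Ly6d and Ly6a had r = -0.155 (exact permutation p = 0.695, adjusted p = 0.772) and rho = -0.143 (p = 0.782, adjusted p = 0.978, n = 7). Without the 2 livers farthest from the median of Ly6d, their r was 0.801, and it was 0.399 without AF liver 2 alone. With all 7 livers and library totals in place of TMM factors it was 0.342, so the sign rested on AF liver 2 and on the scaling. Other changes moved it the other way: over 11 alternatives it ranged from -0.659 to 0.801. With 7 livers only strong relations can be detected, and the pairs that missed the threshold are not shown to vary independently.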

How the data were processed

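The authors isolated liver RNA with TRIzol, enriched it with oligo(dT), prepared libraries with a kit that the labels name as stranded, and aligned the reads to mm10 with TopHat2. The submitters' processing notes name FastQC 0.10.1, TopHat2 2.0.13, HTSeq 0.10.0 and GRCm38. The deposited values are raw read counts per Ensembl gene, 1 column per mouse. The strand setting and annotation of the counting are not given in the sources used here. The reads carry no molecular identifiers, so limits for counts of 0 (3 counts, 95% confidence) cover counting error only.

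Versions were edgeR 4.0.16, DESeq2 1.42.0 and limma 3.58.1 in R 4.3.3, and Biopython 1.88 in Python 3.11.15. IDs were named with GENCODE M21 (54165 of 54232). Counts were filtered with filterByExpr by group (14168 genes), scaled with TMM and compared between AF and PF, with no covariate, by the quasi-likelihood test of edgeR. The p-values were adjusted over all genes by Benjamini-Hochberg, with a threshold of 0.05. The paper's Cuffdiff2 test needs reads and was not run. The members and lists were chosen with earlier results of these data known. Text names all members, tested relatives, tested genes of the chromosome 15 window, the 2 largest called changes in each direction of each list (mean log2 CPM 0 or above), and the 3 genes most alike to each member. Further genes named with values (Csf1r, Ccr2, Csf3r, Il1r2, Cxcr2, Sfn, Siglech, Spp1, Krt19, Krt7, Krt5, Krt14, Krt13, Trp63, Gml, Gml2, Ly6f, Ly6i, Ly6a2, Cyp11b1 and Cyp11b2) were picked after their values were seen. Exact permutation tests ran over 792 divisions of the livers. In a test on simulated data of 14168 genes, edgeR called 67% of 100 genes changed by 1 and 91% of 100 changed by 2 on the log2 scale. Library pairs within groups differed by at least 22.1 times the counting noise, so none was a repeat run of the same library. Each library is a separate mouse. A withheld item is not reported here.

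Alternatives were DESeq2, limma-voom, RLE and upper-quartile factors, library totals without factors, 2 other filters (1 count anywhere, or 10 counts on average), the replicate number as a block, and each library left out in turn. For the correlations they were library totals, RLE factors, a pseudocount of 0.1 CPM in place of a prior count of 2, and livers left out.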

Additional observations from a re-analysis of the deposited data

Results flagged for a closer look

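In 21 genes (the members, the tested relatives and the tested genes of the chromosome 15 window) with 40 groups of values, 5 livers lay far from the rest of their group by the gap to the nearest other liver against the whole range of the group. Chance gives about 1 in 20 such groups, here about 2. PF liver 1 accounted for 3 of them, with 20.1 CPM of Ly6c2 (next PF liver 5.38), 3.44 CPM of Ly6g (next 0.814) and 8.56 CPM of Ly6a2 (next 1.27). In the AF group they were AF liver 1 with 7.02 CPM of Plaur (next 3.43) and AF liver 6 with 2.01 CPM of Zfp41, below the next lowest AF liver at 4.42 CPM.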

How the results depend on the processing

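Ly6d, Ly6a, Ly6c1 and Ly6e kept the sign of their log2 fold change in all 20 alternatives, with ranges of 6.55 to 7.15, 1.35 to 1.85, 1.33 to 2.29 and 0.10 to 0.62. Ly6c2 ranged from -1.10 to 0.19, and was 0.19 without PF liver 1. Lynx1 (2.50 to 3.21), Plaur (1.74 to 2.59) and Ly6g2 (-1.43 to -0.91) were called in all 20 alternatives. With library totals in place of TMM factors, 6458 genes were called higher and 938 lower, against 3116 and 2519, since the median log2 fold change of all tested genes moved from 0.04 to 0.40; relative to that shift Ly6e (0.62 on this scale) stayed close to its reported value. Among the other superfamily genes, 2 were called higher and 1 lower. Testing every gene with at least 1 count gave 4 higher and 2 lower, limma-voom 2 lower, upper-quartile factors and library totals 3 higher, and the fits without 1 library 2 to 3 higher and 1 to 3 lower. The added lower calls in those fits were Cd59a and Cd59b without AF liver 7 and Cd59b without AF liver 2. Gpihbp1 was called higher with upper-quartile factors (adjusted p = 0.034), with library totals (0.00523), without PF liver 4 (adjusted p = 0.0398) or AF liver 5 (0.0363), and 9030619P08Rik was called lower without AF liver 2 (0.00627, edgeR for all). The cause of these shifts was not tested. Whether replicate numbers pair the mice was not settled. The correlations of deviations of same-numbered livers were 0.003, -0.075, 0.117, 0.079 and 0.115. Of these livers, 2 of 5 PF and 1 of 5 AF correlated best with their own number, which is too few pairs to decide. The fit with the replicate block left out AF livers 6 and 7. In it 3 relatives were lower (Cd59a and Cd59b beside Ly6g2) and 6256 of 13984 genes were called. The SE of the Ly6d log2 fold change was 0.14 with the block and 0.34 as reported. Over the 20 alternatives the number of genes called higher ranged from 4 to 13 for interferon-stimulated genes (6 reported), 3 to 15 for GPI anchor enzymes (4), 3 to 7 for monocytes (3), 3 to 5 for Kupffer cells (5), 3 to 11 for endothelium (5), 1 to 8 for bile duct (6) and 1 to 3 for squamous epithelium (2). The number called lower ranged from 0 to 3 for interferon-stimulated genes (2), 1 to 6 for GPI anchor enzymes (5), 0 to 4 for neutrophils (0), 1 to 3 for B and plasmacytoid dendritic cells (2) and 3 to 9 for hepatocytes (3). No pair of members passed the threshold in any of the 10 alternatives with a test. Low reads limit Ly6c1, Ly6k and Plaur, and a level of Ly6h below 0.00899 CPM would not be seen.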
